A study of Danio rerio with 6 samples.

Results

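The genes described here act in DNA replication and cell division. They are the 61 rows of the adult expression table whose names belong to the minichromosome maintenance (MCM) helicase, the origin recognition complex, the replication clamp and its loader, nucleotide synthesis, cyclins and their kinases, mitotic kinases, centromere proteins and spindle motors, out of 33737 rows in all. Of these, 28 were placed in a replication set, 31 in a mitosis set that includes the A cyclins, and 2 were matched by their name and placed in neither set. The rows CENPF (2 of 2) and cenpj are in the mitosis set by their older names. All 61 passed the filter on low counts, as did 20628 rows of the whole table. No row matched under the names mcm2, mcm7, ccne1, ccne2, cdc20, cenpa, orc2 and orc4, which also belong to these families. These genes were not analysed here. Rows were matched by name, and 9040 rows had no name.

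RNA was sequenced from the olfactory epithelium of adult zebrafish in 3 libraries of fish exposed to phenyl ethyl alcohol (PEA), a rose-scented odorant, and in 3 control libraries. All fish were of the strain New wild type (AB derived line), and no transgene or mutation is named. Embryos of the PEA group received the odorant every day over 3 weeks of development, those of the control group received distilled water, and both then lived in a recirculating system until the age of 6 months given in the labels. The labels state 10 fish per group and triplicate exposures without saying how the fish were pooled, and the paper names the source as whole olfactory organs, which also hold vessels and connective tissue. The PEA libraries held 43590575 to 46153505 counts and the control libraries 45153814 to 49085973, so that 3 counts correspond to at most 0.0697 CPM, that is, counts scaled to a common library size.

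In a dividing cell, the origin recognition complex and cdc6 load the MCM ring onto DNA in G1, cdc45 and the GINS complex turn it into a working helicase, and the clamp pcna, loaded by the rfc complex, holds the polymerases on the DNA during S phase. Cyclin B with cdk1, the aurora and polo kinases and the kinetochore then carry the cell through mitosis. RNA of many replication genes appears from late G1, and that of many mitotic genes in G2 and M. The stage at which each member is expressed was not examined here, so the sets divide the cycle only roughly. The olfactory epithelium renews its sensory neurons throughout life from dividing basal cells. The libraries came from earlier work of the authors on the olfactory organ of fish imprinted on an odorant, against control fish. The paper itself examined neutrophils and the blood and lymphatic vessels of this organ. It also labelled dividing cells there with BrdU, in control fish and in fish exposed to copper, and reported more labelling after copper damage. From a gene ontology analysis of the RNA data it reported that immune genes were up-regulated with olfactory memory.

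No replication or mitosis gene passed the test between PEA and control libraries, and nearly all fold changes were small. With edgeR, 0 of the 61 genes had an adjusted p under 0.05, where 0% of all genes tested had one. At an unadjusted p under 0.05 the count was also 0 of 61, against 1.66% of all genes tested (0.805% higher and 0.853% lower in PEA), and DESeq2 gave 0 of 61 at either threshold, against 0.0184% and 1.28% of all genes. Only plk1 had an unadjusted p under 0.1, a threshold that 4.41% of all genes passed. The log2 fold changes of PEA over control ran from -0.28 to 0.48, with a median of 0.06, beside -0.005 over all genes tested. They were above 0 in 44 of 61 genes, against 48.5% of all genes. All 61 were measured in the same 6 libraries, so the 44 are not separate observations. The 95% interval of the fold change lay between -1 and 1 on the log2 scale in 59 of 61 genes, and within 0.5 on either side in 37. In RNA of a whole tissue, a difference in the number of dividing cells cannot be told apart from one in the RNA per dividing cell.

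**Figure D1:**
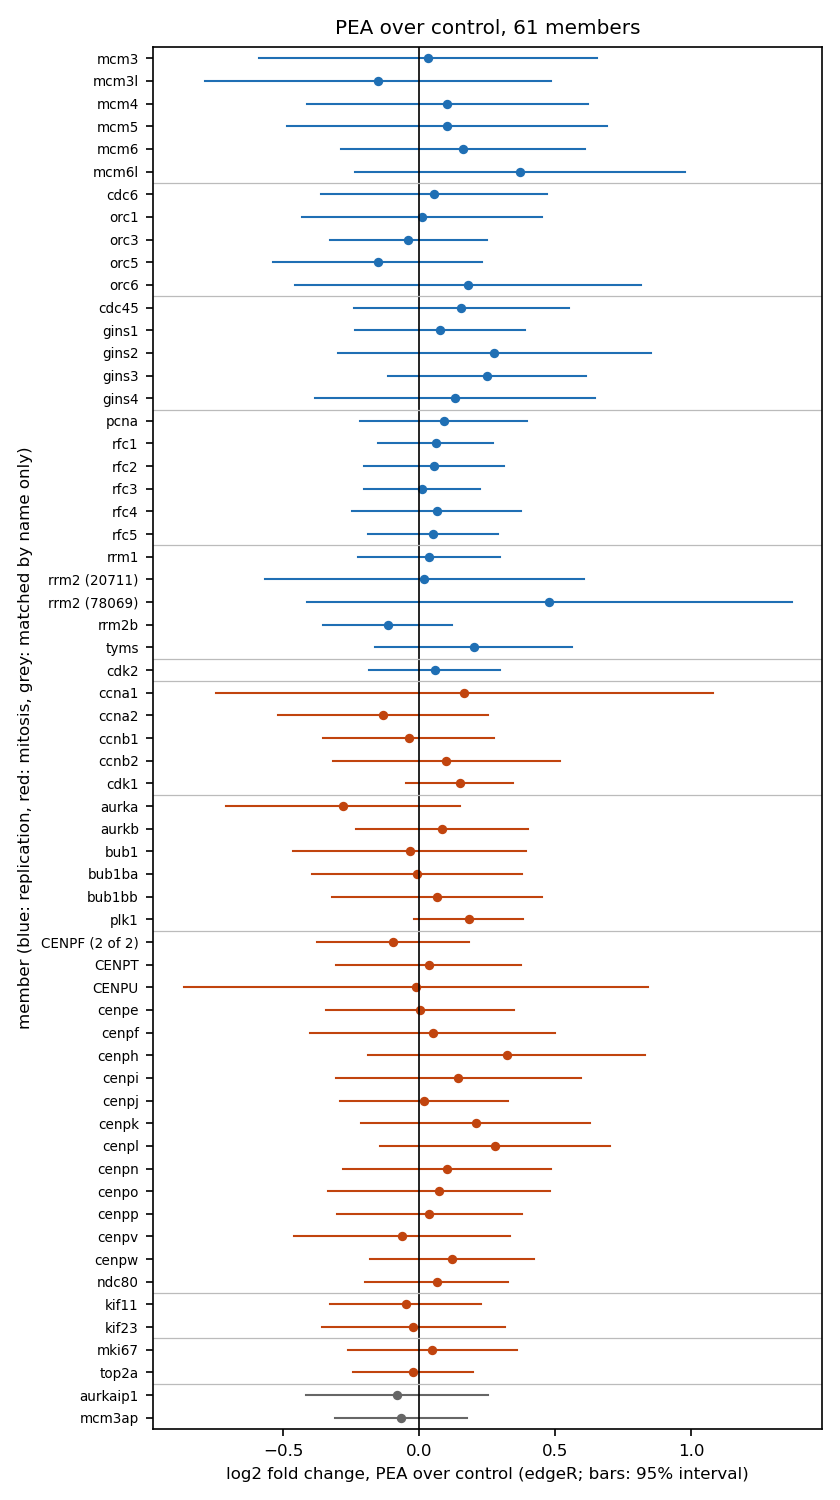
The log2 change of PEA over control from edgeR is plotted for each of the 61 genes, with its 95% interval as a bar and the genes grouped by role. Every interval spans 0, and the points lie between -0.28 (aurka) and 0.48 (the rrm2 row ENSDARG00000078069).

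Without any overlap, the PEA values exceeded the control values in 3 of 61 genes and fell below them in 0. Over all genes tested, 2.56% were separated upward and 2.94% downward. The 3 genes were plk1, cdk1 and cenpl, each of mitosis. The polo kinase plk1 (ENSDARG00000058471), which drives entry into mitosis and spindle assembly, was at 33.0, 34.3 and 31.0 CPM in the PEA libraries, against 29.9, 29.4 and 27.4 CPM in the control libraries. Its log2 fold change was 0.18 (SE 0.09, 95% interval -0.02 to 0.38, edgeR adjusted p = 1.00). The kinase cdk1 (ENSDARG00000087554), which with cyclin B starts mitosis, was at 24.9, 26.1 and 24.2 CPM in the PEA libraries, against 22.9, 22.2 and 22.8 CPM in the control libraries. The groups were close, at a log2 change of 0.15 (SE 0.09, 95% interval -0.05 to 0.35, edgeR adjusted p = 1.00). For cenpl (ENSDARG00000038802), a part of the inner kinetochore, the values were 2.55, 2.63 and 2.41 CPM in PEA libraries and 1.81, 2.33 and 2.11 CPM in control libraries. It rested on 78 to 119 counts per library and had a log2 change of 0.28 (SE 0.19, edgeR adjusted p = 1.00).

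Of the MCM helicase genes, mcm4, mcm5 and mcm6 differed more among the control libraries than between the group means. For mcm5 (ENSDARG00000019507), a subunit of the ring, the PEA libraries were at 39.6, 37.2 and 28.8 CPM and the control libraries at 44.7, 33.6 and 20.1 CPM. Control 1 was thus the highest and control 3 the lowest of all 6, with the PEA libraries between them. The same held for mcm6 (ENSDARG00000057683), at 50.4, 49.6 and 44.2 CPM in PEA libraries and 54.4, 45.3 and 29.4 CPM in control libraries, and for mcm4 (ENSDARG00000040041), at 51.9, 46.5 and 39.0 CPM in PEA and 57.7, 41.4 and 28.9 CPM in control libraries. Between the groups the log2 fold changes were 0.10 (SE 0.26) for mcm5, 0.16 (SE 0.20) for mcm6 and 0.10 (SE 0.23) for mcm4. Between control 1 and control 3 alone the log2 differences were 1.15, 0.89 and 0.99. Without control 3 the fold change of mcm5 turned to -0.15 and that of mcm6 to -0.05. Without control 1 they came to 0.40 and 0.37.

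Of the other MCM rows, mcm3 (ENSDARG00000024204) was at 7.98, 3.97 and 4.83 CPM in PEA libraries and 5.79, 6.33 and 4.28 CPM in control libraries, with PEA 1 the highest and PEA 2 the lowest of all. The related rows mcm3l and mcm6l had few reads. The row mcm6l (ENSDARG00000033231), which shares the symbol MCM6 with mcm6 in the current gene name table, had 56, 66 and 86 counts in PEA libraries and 41, 55 and 77 counts in control libraries. Its log2 change of 0.37 (SE 0.27, edgeR adjusted p = 1.00) was the largest of the group. Within each group its library order was the reverse of that of mcm6, and control 1 was the lowest of all 6. Such related copies may share reads in the counting. The summed rows of mcm6 and mcm6l were at 51.7, 51.1 and 46.0 CPM in PEA and 55.3, 46.3 and 31.0 CPM in control libraries, which is the order of mcm6.

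The genes that turn the loaded ring into a helicase, cdc45 and the 4 GINS subunits, all had a log2 fold change above 0, from 0.08 to 0.28, with 0 of 5 called. The subunit gins3 (ENSDARG00000038847) was at 4.50, 5.79 and 5.36 CPM in PEA libraries and 4.52, 4.59 and 4.06 CPM in control libraries, for a log2 change (PEA over control) of 0.25 (SE 0.16, edgeR adjusted p = 1.00). For gins1 (ENSDARG00000007624) the values were 12.5, 15.2 and 11.8 CPM in PEA and 13.8, 11.5 and 12.1 CPM in control libraries. On the log2 scale gins2 (ENSDARG00000002304) had the largest SD of these 5 genes within a group, 0.51 among control libraries. It was at 4.39, 4.53 and 4.38 CPM in PEA libraries and 5.17, 3.28 and 2.55 CPM in control libraries. Its 3 PEA values nearly coincide and lie inside the control range. Without control 1 its log2 fold change came to 0.61 (SE 0.19, unadjusted p = 0.0121 and adjusted p = 0.994 from edgeR), against 0.28 (SE 0.25) with all libraries. Control 1 held the only control value above the PEA values, so this p depends on which library was removed. The fit of gins2 without control 3 is not given here.

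The origin genes showed no common direction, with 3 above and 2 below 0 (median 0.01). The most counted, orc5 (ENSDARG00000021579), was at 12.7, 16.2 and 18.4 CPM in PEA libraries and 17.0, 14.9 and 20.7 CPM in control libraries, a log2 change of -0.15 (SE 0.17, edgeR adjusted p = 1.00). The genes orc1 and orc6 and the loader cdc6 were highest in PEA 1 within the PEA group and lowest in control 3 within the control group, whereas orc5 was lowest in PEA 1 and highest in control 3. Their intervals were wide, as for orc6 from -0.46 to 0.82, at 63 to 109 counts per library.

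The clamp pcna (ENSDARG00000054155), a common label of cells in S phase, had more counts than any other member, at 203, 223 and 200 CPM in PEA libraries and 232, 194 and 162 CPM in control libraries. The group means were 209 ± 12.8 CPM in PEA and 196 ± 35.1 CPM in control libraries (SD, n = 3 each). The control libraries again spanned the PEA libraries, and the log2 fold change was 0.09 (SE 0.13, 95% interval -0.22 to 0.40, edgeR adjusted p = 1.00). The 5 subunits of the clamp loader had log2 fold changes close to 0, from 0.01 for rfc3 to 0.06 for rfc4. The kinase cdk2, which fires origins with cyclin E or A, was at 20.8, 22.4 and 22.0 CPM in PEA and 23.4, 19.4 and 19.9 CPM in control libraries (log2 fold change 0.06, SE 0.11).

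Among the genes of nucleotide supply, thymidylate synthase tyms (ENSDARG00000042894), which makes dTMP, was at 16.0, 15.9 and 15.4 CPM in PEA libraries and 16.2, 14.4 and 10.5 CPM in control libraries. Its log2 change of 0.20 (SE 0.16, edgeR adjusted p = 1.00) was 0.04 without control 3. The large subunit of ribonucleotide reductase, rrm1 (ENSDARG00000014017), was at 68.1, 75.8 and 70.6 CPM in PEA and 79.7, 69.1 and 60.5 CPM in control libraries, a log2 change of 0.04 (SE 0.11).

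The table holds 2 rows named rrm2, the small subunit, and they ran against each other. The row ENSDARG00000020711 was at 6.68, 5.88 and 9.34 CPM in PEA libraries and 4.82, 7.84 and 8.94 CPM in control libraries. The row ENSDARG00000078069 was at 2.84, 6.44 and 3.41 CPM in PEA libraries and 4.63, 2.52 and 1.97 CPM in control libraries. Control 1 was the lowest control library in one and the highest in the other. The log2 fold changes were 0.02 (SE 0.26) and 0.48 (SE 0.39, 95% interval -0.41 to 1.37), and the row with the higher value was at 0.04 without PEA 2 and at 0.92 without control 1. Reads may be split between rows of the same name. Both together came to 9.52, 12.3 and 12.7 CPM in PEA and 9.46, 10.4 and 10.9 CPM in control libraries, a log2 ratio of means of 0.17, so the sum varied less than either row. The further subunit rrm2b, induced by p53 in mammals, had a log2 change of -0.12 (SE 0.10).

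Ki-67, encoded by mki67 (ENSDARG00000091150) and used as a marker of cycling cells, was at 53.9, 61.6 and 65.3 CPM in PEA libraries and 47.3, 63.4 and 64.2 CPM in control libraries. Control 1 and PEA 1 were the lowest of all, the opposite of what mcm5 showed. The group means were 60.3 ± 5.80 CPM in PEA and 58.3 ± 9.51 CPM in control libraries (SD, n = 3 each), which gave a log2 change of 0.05 (SE 0.14, 95% interval -0.26 to 0.36, edgeR adjusted p = 1.00). Topoisomerase top2a (ENSDARG00000024488), which untangles sister chromatids, was at 27.7, 28.8 and 32.1 CPM in PEA and 28.7, 29.5 and 32.0 CPM in control libraries, with a log2 change of -0.02 (SE 0.10). Its groups overlapped nearly completely. The spindle motor kif11 (ENSDARG00000010948), which pushes the spindle poles apart, was at 12.2, 12.3 and 13.5 CPM in PEA and 11.8, 12.9 and 14.7 CPM in control libraries (log2 fold change -0.05, SE 0.12). For kif23, the motor of the midzone in cytokinesis, the log2 fold change was -0.02 (SE 0.15).

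Of the mitotic cyclins, ccnb1 (ENSDARG00000051923) was at 8.45, 8.48 and 9.97 CPM in PEA libraries and 8.18, 9.36 and 10.1 CPM in control libraries, a log2 change of -0.04 (SE 0.14). The values for ccna2 and ccnb2 were -0.13 (SE 0.17) and 0.10 (SE 0.18). The cyclin ccna1, which in mammals acts mainly in the germ line, was counted 20, 46 and 67 times in PEA libraries and 31, 42 and 54 times in control libraries, and its 95% interval ran from -0.75 to 1.08. The aurora kinases differed in sign. The centrosomal aurka (ENSDARG00000012485) was at 2.43, 2.88 and 2.92 CPM in PEA and 2.80, 3.42 and 3.78 CPM in control libraries, the lowest log2 change of all members at -0.28 (SE 0.19, edgeR adjusted p = 1.00). The chromosomal passenger kinase aurkb (ENSDARG00000037640) was at 12.2, 15.1 and 16.8 CPM in PEA and 13.2, 13.3 and 15.0 CPM in control libraries, at 0.08 (SE 0.14). The checkpoint genes bub1, bub1ba and bub1bb, which delay anaphase until chromosomes are attached, lay between -0.04 and 0.06.

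Of 16 centromere and kinetochore genes, 13 had a log2 fold change above 0 and 3 below it (median 0.06), with 0 called. Among those of the inner kinetochore, cenph (ENSDARG00000094892) was at 2.77, 2.65 and 2.27 CPM in PEA libraries and 2.60, 1.90 and 1.67 CPM in control libraries, a log2 change of 0.32 (SE 0.22, edgeR adjusted p = 1.00). Only control 1 lay inside the PEA range. Its partner cenpk (ENSDARG00000039616) was at 2.64, 3.18 and 2.69 CPM in PEA and 2.76, 2.37 and 2.25 CPM in control libraries (log2 fold change 0.21, SE 0.18). The motor cenpe and the corona protein cenpf, both made late in the cycle, were at 0.00 (SE 0.15) and 0.05 (SE 0.20). For cenpf (ENSDARG00000055133) the values were 9.39, 9.34 and 10.1 CPM in PEA and 6.44, 10.5 and 10.9 CPM in control libraries, so control 1 stood apart from the other 5. The outer kinetochore gene ndc80 was at 29.1, 28.5 and 30.1 CPM in PEA and 31.6, 23.9 and 28.4 CPM in control libraries. The row named CENPF (2 of 2) (ENSDARG00000090986) had 5439 to 8383 counts per library. The current gene name table lists it as si:dkeyp-115e12.6, so its place among the centromere genes rests on the older name. It was at 124, 154 and 161 CPM in PEA and 141, 159 and 168 CPM in control libraries (log2 fold change -0.10, SE 0.12). The gene cenpj is listed as cpap in the current gene name table. Its place in this group also rests on the older name (log2 fold change 0.02, SE 0.14).

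**Figure D2:**
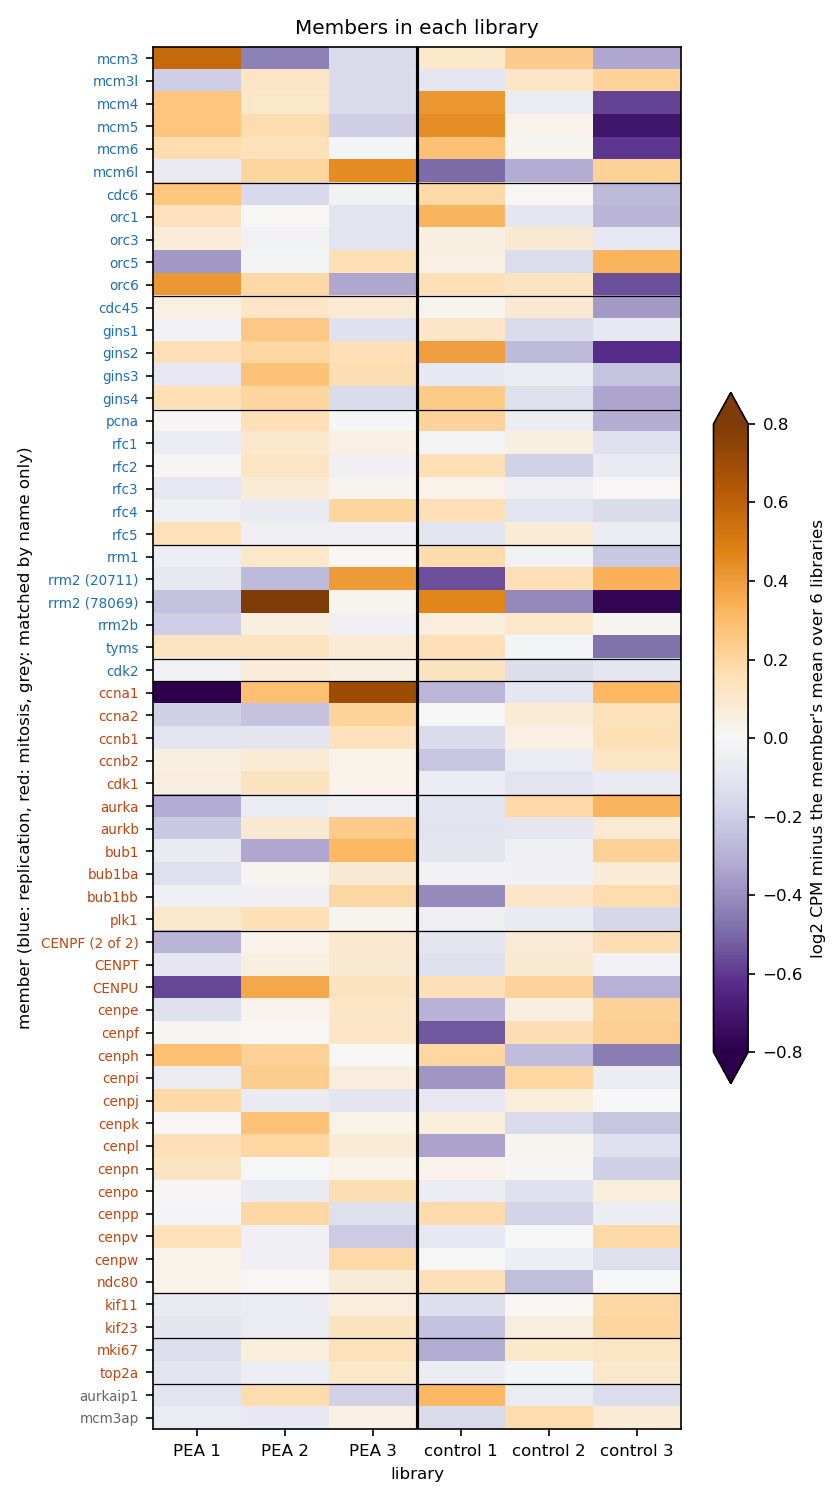
Colour gives the log2 CPM of each gene in each library minus the mean of that gene over the 6 libraries, with the PEA libraries left of the control libraries and the genes grouped by role. In control 1 the rows of mcm4, mcm5, mcm6, gins2 and pcna are high and those of mki67, cenpf and bub1bb low, and in control 3 the same replication rows are low.

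The genes named for a common order of the libraries in the next comparison, such as mcm4, gins2, cenpf and bub1bb, were chosen after their values were seen. Over the 28 replication genes the mean log2 CPM was 3.40, 3.45 and 3.36 in PEA 1 to 3 and 3.46, 3.31 and 3.13 in control 1 to 3. Over the 31 mitosis genes it was 2.69, 2.80 and 2.86 in PEA 1 to 3 and 2.65, 2.76 and 2.80 in control 1 to 3. The replication genes thus were highest in control 1 and lowest in control 3, whereas the mitosis genes were lowest in control 1. The difference of the means, replication minus mitosis, depends on gene length and is read only between libraries. It was 0.71, 0.65 and 0.50 in the PEA libraries and 0.81, 0.56 and 0.33 in the control libraries. Averaged by group it was 0.62 ± 0.11 in PEA and 0.56 ± 0.24 in control libraries (SD, n = 3 each), and the difference between the groups of 0.06 was smaller than either SD. With 3 libraries against 3 no exact test could go below p = 0.10, and none was made.

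**Figure D3:**
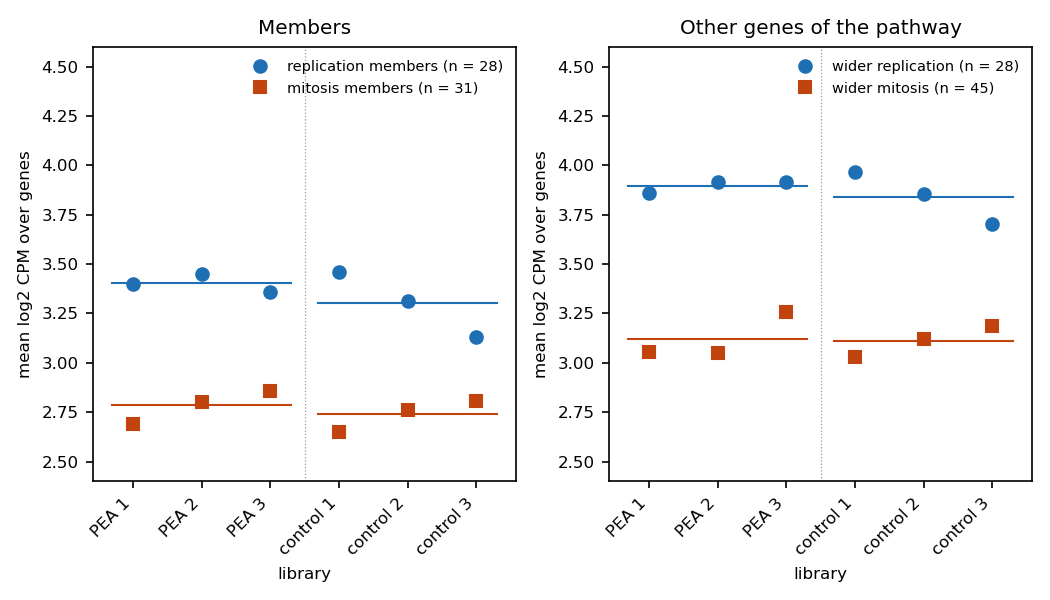
Each point is the mean log2 CPM over a set of genes in 1 library, for the members (left) and for other genes of the same processes (right), with replication as circles, mitosis as squares and the group mean as a line. In both panels the circles and the squares are farthest apart in control 1 and closest in control 3.

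Control 1 and control 3 were then set side by side gene by gene. They were picked after these values were seen, so the numbers describe the spread within the control group and no test was made. Control 1 lay above control 3 in 23 of 28 replication genes and in 9 of 31 mitosis genes, beside 47.8% of all genes tested. The median log2 difference of control 1 over control 3 was 0.34 over the replication genes and -0.19 over the mitosis genes, beside -0.02 over all genes. It was largest for the MCM genes (median 0.66), followed by the origin genes (0.44), nucleotide supply (0.40) and the helicase activators (0.38), and smaller for the clamp and its loader (0.16). Among mitosis genes it was -0.38 for the spindle motors, -0.30 for the cyclins with cdk1 and for top2a with mki67, -0.25 for the mitotic kinases and checkpoint genes and -0.08 for the centromere genes. PEA 1 lay above PEA 3 in 15 of 28 replication genes and 9 of 31 mitosis genes, beside 49.6% of all genes. The medians were 0.01 and -0.16, beside -0.003 over all genes. Of the replication and mitosis sets, only the latter had a lower median in the library numbered 1 in both groups. The SD of log2 CPM had a median of 0.14 in PEA and 0.24 in control libraries over the replication genes, and of 0.17 and 0.18 over all genes. Control 1 and control 3 also differed more than any other pair within a group over the whole table, with a chi-square statistic of 57.2 per gene against 14.9 to 44.2.

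**Figure D4:**
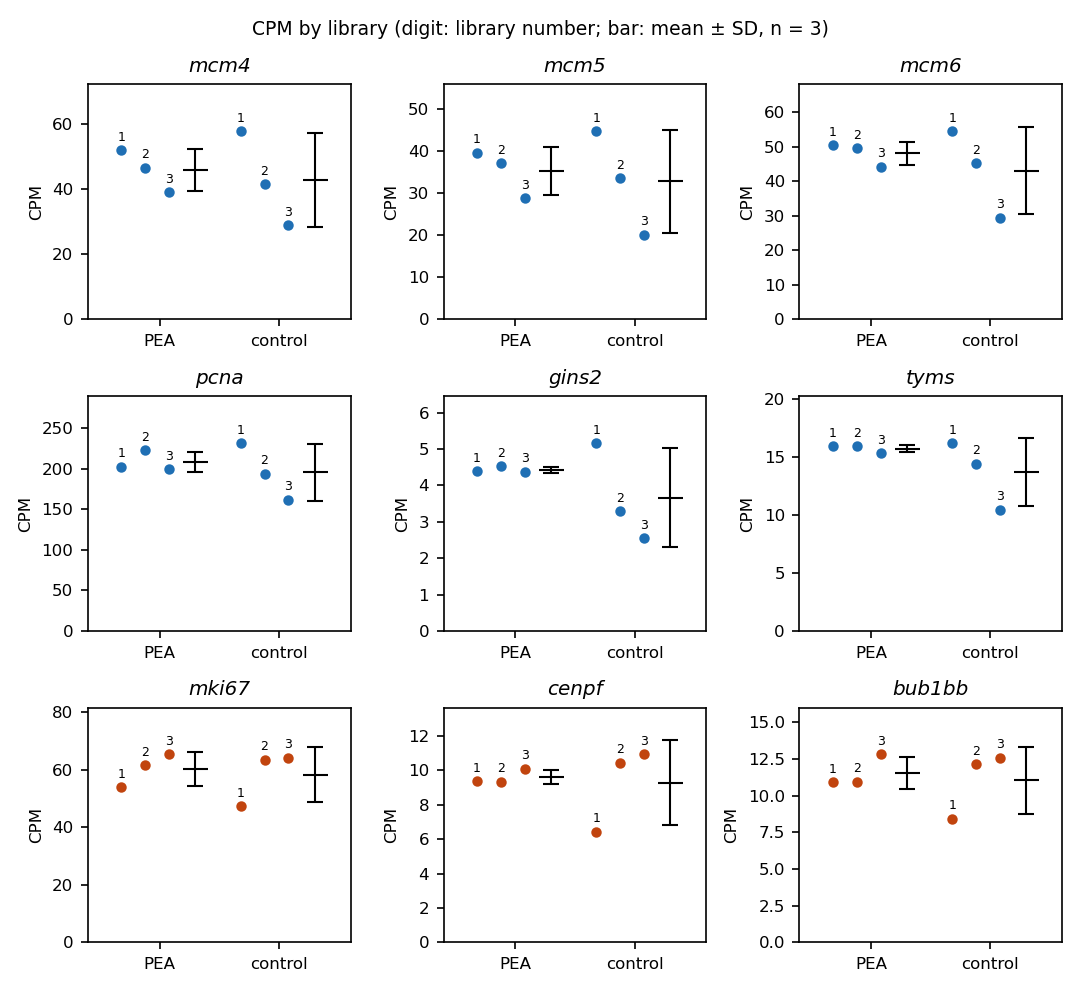
CPM is plotted by library for 6 replication genes (blue) and 3 mitosis genes (red), with the library number above each point and the mean ± SD (n = 3) beside them. The control libraries run from 20.1 to 44.7 CPM for mcm5 and from 47.3 to 64.2 CPM for mki67, and in both genes the PEA mean lies inside that range.

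No gene of the wider replication and mitosis lists, which hold other genes of the same processes, passed the test either. Of 28 other replication genes tested, 0 were called and 0 had an unadjusted p under 0.05, with 21 above 0 and a median log2 change of 0.05. The 4 with the lowest p were the primase subunit prim2 at 0.23 (SE 0.12), dihydrofolate reductase dhfr at 0.25 (SE 0.15), the polymerase subunit pold3 at 0.12 (SE 0.11) and the single-strand binding protein rpa2 at 0.11 (SE 0.12). Of 45 other mitosis genes tested, 0 were called and 0 had an unadjusted p under 0.05, 27 lay above 0 and the median was 0.02. Lowest in p were the checkpoint gene bub3 at -0.16 (SE 0.12), the kinetochore gene spc25 at 0.19 (SE 0.17), the condensin subunit smc2 at 0.10 (SE 0.09) and the motor kif4 at 0.14 (SE 0.14).

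The wider lists differed between control 1 and control 3 in the same sense as the members. They come from the same libraries and are no separate check. Control 1 lay above control 3 in 22 of 28 other replication genes (median 0.33) and in 12 of 45 other mitosis genes (median -0.11). The flap endonuclease fen1, which processes Okazaki fragments, was at 19.9, 19.8 and 17.5 CPM in PEA libraries and 25.2, 18.9 and 13.5 CPM in control libraries, and the initiation factor mcm10 was at 2.05, 1.81 and 1.91 CPM in PEA and 2.39, 1.94 and 1.23 CPM in control libraries. In both genes control 1 was the highest and control 3 the lowest of all libraries. Geminin (gmnn), which blocks a second loading of the MCM ring after S phase begins, went the other way, at 10.2, 21.9 and 20.6 CPM in PEA and 12.7, 20.1 and 21.2 CPM in control libraries, with both libraries numbered 1 low. The difference of the mean log2 CPM, other replication minus other mitosis genes, was 0.81, 0.86 and 0.66 in PEA 1 to 3 and 0.94, 0.74 and 0.52 in control 1 to 3.

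Among G1 cyclins, kinases and E2F and Myc factors, 0 of 19 tested genes were called (median log2 fold change 0.02), and the cyclin ccnd2b, a partner of cdk4 and cdk6, had the lowest p, at 0.20 (SE 0.09, unadjusted p = 0.0606 from edgeR). Next in p came the factor mycb at -0.20 (SE 0.13), the cyclin ccnd3 at 0.43 (SE 0.34) and the factor e2f3 at 0.11 (SE 0.13). Among CDK inhibitors and arrest genes 0 of 16 were called (median 0.03). The inhibitor cdkn1a (ENSDARG00000076554), the p21 protein that halts cells in G1, was at 23.8, 30.9 and 28.1 CPM in PEA libraries and 21.9, 14.1 and 18.7 CPM in control libraries. No control value reached the lowest PEA value, at a log2 change of 0.60 (SE 0.17, 95% interval 0.21 to 0.99), but it did not pass the test over all genes (unadjusted p = 0.00720, adjusted p = 1.00 from edgeR). Next were the cyclin ccng1 at 0.12 (SE 0.09), the antiproliferative gene btg2 at 0.73 (SE 0.57) and the retinoblastoma relative rbl2 at 0.11 (SE 0.11). The libraries of each group differed widely for btg2, at 247, 347 and 146 CPM in PEA and 274, 131 and 41.5 CPM in control libraries. Of these 4 lists, cdkn1a was the only gene with an unadjusted p under 0.05, a threshold that 1.66% of all genes tested passed. All PEA values exceeded all control values in 1 of 28 other replication genes (prim2), 0 of 45 other mitosis genes, 1 of 19 G1 genes (ccnd2b) and 1 of 16 arrest genes (cdkn1a). In 0 genes of each list did they all fall below. Over all genes tested, 2.56% were separated upward and 2.94% downward.

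The tissue showed its own markers in every library. All 9 markers of olfactory sensory neurons found in the table were detected, gng13b and ompb among them, with a summed level of 3029 to 3633 CPM in PEA and 3120 to 3287 CPM in control libraries. The markers of basal and neuronal progenitors had a mean log2 CPM of 5.50, 5.83 and 5.76 in PEA libraries and 5.71, 5.86 and 5.88 in control libraries. In the comparison of the groups 8 of 10 lay below 0, with 0 called. Whether the cells that carry these markers were dividing was not tested. The basal keratin krt5 was at 1814, 1816 and 2249 CPM in PEA and 2475, 2400 and 2239 CPM in control libraries (log2 fold change -0.28, SE 0.11, unadjusted p = 0.0386 and adjusted p = 1.00 from edgeR).

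Genes listed as markers of other cells that could carry RNA of dividing cells were detected as well. Their summed levels in PEA and control libraries were 60.9 to 63.5 and 60.0 to 68.7 CPM for 5 T cell genes, 22.7 to 48.0 and 9.56 to 16.9 CPM for 3 B cell genes, 158 to 191 and 147 to 199 CPM for 4 neutrophil genes, 243 to 346 and 264 to 302 CPM for 4 macrophage genes, and 113 to 123 and 93.4 to 142 CPM for 5 erythroid genes, of which epor was at 0. Markers of oocytes and testis stayed at 4.02 to 4.64 and 4.22 to 4.50 CPM, with zp2.1 at 0. Of these, the B cell sum was higher in every PEA library than in any control library, carried by the row named ighv1-4. That row had a log2 fold change of 1.40 (SE 0.31, unadjusted p = 0.00184 from edgeR) and did not pass the test over all genes. Over all genes tested, 2.56% were separated upward. The groups overlapped for the other B cell genes, cd79a at 0.20 (SE 0.23) and pax5 at 0.20 (SE 0.48). Within the T cell sum, rag1 was at 15.0 to 18.5 CPM and rag2 at 8.17 to 10.3 CPM. The neutrophil sum was mostly mmp9, at 126 to 178 CPM, while mpx was at 2.49 to 5.19 CPM. The macrophage sum was lowest in PEA 3, where mpeg1.3 was at 0.296 CPM, against 29.8 to 61.4 CPM in the other libraries. Which cells these transcripts came from was not tested. The summed level of 5 targets of the glucocorticoid receptor was 2381, 1188 and 639 CPM in PEA and 2412, 373 and 274 CPM in control libraries, highest in the library numbered 1 of each group. Of these, fkbp5 was at 1621, 311 and 322 CPM in PEA and 1414, 99.3 and 101 CPM in control libraries, and klf9 and pdk2b were also highest in both libraries numbered 1. The exceptions were tsc22d3, highest within the PEA group in PEA 2 (796 CPM, against 566 CPM in PEA 1), and per1a, highest within the control group in control 2 (0.938 CPM, against 0.742 CPM in control 1). The mean over the mitosis genes was lowest in both libraries numbered 1, and that over the replication genes was highest in control 1 and, within the PEA group, in PEA 2. The part of these cells and of the glucocorticoid targets in the spread of the cell cycle genes was not tested.

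The name pattern also matched mcm3ap and aurkaip1, which were placed in neither set. The gene mcm3ap acts in export of messenger RNA, and aurkaip1 is a component of the mitochondrial ribosome in mammals. Whether they also act in replication or mitosis was not examined. The values for mcm3ap (ENSDARG00000021402) were 30.9, 30.5 and 33.3 CPM in PEA and 28.9, 36.3 and 34.0 CPM in control libraries, and those for aurkaip1 (ENSDARG00000074985) 27.3, 33.0 and 25.8 CPM in PEA and 36.5, 28.2 and 26.6 CPM in control libraries. Their log2 fold changes were -0.07 (SE 0.11) and -0.08 (SE 0.15), within the range of the cell cycle genes.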

How the data were processed

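RNA was sequenced from 3 PEA and 3 control libraries. Groups and library numbers came from the sample titles, which match the column names. The raw counts per gene that the authors deposited came from HTSeq 0.11.2, after quality checks in FastQC 0.11.9, trimming in Trim Galore 0.6.4 and Bowtie2 alignment to Zv9, per their processing notes. How strand and multiply aligned reads were handled, and which annotation release was used, is not stated in these sources. Their 6 columns of normalized values, and their group means and fold changes, were not used.

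Counts were tested with edgeR 4.0.16 in R 4.3.3 (filterByExpr, TMM, quasi-likelihood, condition only, Benjamini-Hochberg over 20628 genes, threshold 0.05), and DESeq2 1.42.0 was the other tool. CPM uses TMM-adjusted library sizes. Mean log2 CPM uses a prior count of 2. The SE is the absolute log2 fold change over the square root of F, and the 95% interval uses the t distribution of the same fit. The scripts were tested on simulated data. Chi-square statistics of 14.9 to 57.2 per gene showed no duplicates among the pairs of libraries within a group, and pairs across the groups were not compared. Nothing says whether libraries came from separate fish, so p-values measure the spread between these libraries. The gene name table held 21939 of the 33737 row IDs. Lengths were not used here, so CPM does not rank genes by level, and the replication minus mitosis difference is read only between libraries, and Zv9 positions are not given.

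Genes were named by a rule: genes fixed by name where present, the most counted gene and that with the lowest p in each role, the 10 lowest p, genes whose groups do not overlap, genes matched by name only, and the 4 lowest p of each wider list. Others were named after their values were seen. The members and lists were chosen with earlier results of these data known. Alternatives were DESeq2, its size factors within edgeR, a filter of 10 counts per library or none, a replicate block, fits with 1 library left out, and the libraries numbered 2 and 3 alone.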

Additional observations from a re-analysis of the deposited data

How the results depend on the processing

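In no alternative was a cell cycle gene called (0 of 61, or 0 of 60 with at least 10 counts required in each library, which removed CENPU). DESeq2 called 5 genes of the whole table, and edgeR called 1 without control 3 (zgc:163079) and 1 in the libraries numbered 2 and 3 alone (fkbp5), against 0 with all libraries. Leaving out each library in turn gave 0 to 1 such calls. Members at an unadjusted p under 0.05 numbered 0 to 3 when each library was left out, with 3 (gins2, cenph and the rrm2 row ENSDARG00000078069) without control 1. In the libraries numbered 2 and 3 alone there were 2 (gins2 and the same rrm2 row). The share of all genes under this threshold in these fits is not given here, so the counts have no background beside them. In the libraries numbered 2 and 3 alone the median log2 fold change came to 0.11 over all members and 0.18 over the replication genes. With all libraries both medians were 0.06. The SD between libraries of the mean log2 CPM was 0.04 over all members and 0.12 over the replication genes, which is not the spread of a median fold change. The spread of these medians was not estimated, and the cause of the shifts was not tested. With each library left out the medians ran from 0.03 to 0.08 over all members, from 0.01 (without control 3) to 0.17 (without control 1) over replication genes and from -0.01 to 0.08 over mitosis genes, and the difference between the groups in replication minus mitosis from -0.06 to 0.18.

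Of the 26 members named by the rule, 14 changed sign in at least 1 fit with a library left out. Members named after their values were seen, such as mcm4, gins2, cenpf and bub1bb, were not part of this check. Their ranges were -0.17 to 0.013 (CENPF (2 of 2)), -0.20 to 0.073 (aurkaip1), -0.021 to 0.20 (aurkb), -0.12 to 0.032 (ccnb1), -0.040 to 0.16 (gins1), -0.12 to 0.040 (kif11), -0.15 to 0.0059 (mcm3ap), -0.15 to 0.40 (mcm5), -0.053 to 0.37 (mcm6), -0.077 to 0.13 (mki67), -0.031 to 0.23 (pcna), -0.057 to 0.15 (rrm1), -0.20 to 0.20 (rrm2, ENSDARG00000020711) and -0.088 to 0.025 (top2a). With the libraries numbered 2 and 3 alone, aurkaip1 was at 0.11, mki67 at -0.0017 and that rrm2 row at -0.13. The other size factors, the other filters, the block and DESeq2 changed no sign.

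With the library number as a replicate block, 0 genes and 0 members were called and the median over all members was 0.06. With the block the log2 fold change of mcm5 was 0.16 (unadjusted p = 0.269 from edgeR) and that of mcm6 0.20 (unadjusted p = 0.175 from edgeR). The sample titles give the same group numbers to PEA and control libraries, without saying whether a shared number marks a pair. Libraries of the same number correlated over all genes at 0.17, -0.15 and 0.14 in their deviations from the group means. The main fit did not use the numbers as pairs. This correlation is not given for the members alone, so a pairing among them is not settled here. Rows with few counts, such as CENPU at 8 to 16 counts per library (95% interval -0.87 to 0.84), leave a wide range in both directions.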
